A study of Mus musculus with 12 samples.

Results

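The gene set described here holds 34 genes of pyruvate oxidation, the tricarboxylic acid (TCA) cycle and the degradation of the branched-chain amino acids leucine, valine and isoleucine. They were chosen by symbol from a table of 21899 genes, with no measured value in the rule. Earlier results of these data were known when they were chosen, so their contrast with all genes is a description. All 34 were found and tested among 14393 genes with enough counts. Of the 34, 18 belong to pyruvate dehydrogenase and the TCA cycle and 16 to branched-chain degradation. They were measured by RNA sequencing of whole colon tissue from 12 mice. In 6 mice Pck1 had been deleted in intestinal epithelial cells (labelled CKO, here the knockout), and 6 littermates (labelled WT) were the controls. All 12 mice had received 2.5% dextran sulfate sodium (DSS), which damages the gut lining and sets off colitis, for 7 days, so each difference is between genotypes under DSS. The labels used here give no allele, Cre driver, strain, sex or age.

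In mitochondria, pyruvate dehydrogenase turns pyruvate into acetyl-CoA, which citrate synthase joins to oxaloacetate to start the TCA cycle. Branched-chain amino acids lose their amino group first and are then oxidised by a complex built like pyruvate dehydrogenase, after which leucine ends as acetyl-CoA and acetoacetate, and valine and isoleucine end partly as propionyl-CoA that enters the cycle as succinyl-CoA. Pck1 encodes the cytosolic phosphoenolpyruvate carboxykinase, which draws oxaloacetate, a product of the cycle, into gluconeogenesis. Colon epithelial cells oxidise short-chain fatty acids, butyrate above all, through this cycle.

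Promoters are shown for 3 genes of the leucine branch, because Mccc1 and Mccc2, the subunits of one enzyme, had the largest negative fold changes of the set while Auh, the next enzyme of the branch, had the largest positive one, a small value that rested on knockout 2. Each sequence is the 250 bases before the annotated start on the minus strand, from RefSeq on GRCm38.p6, written 5′ to 3′. The windows are chr3:36000679-36000928 for Mccc1, chr13:100015640-100015889 for Mccc2 and chr13:52929678-52929927 for Auh. Capitals mark CCAAT, the NF-Y box, or its reverse complement ATTGG, and in Auh CTTCCGG, the reverse complement of the ETS element CCGGAAG.
Mccc1: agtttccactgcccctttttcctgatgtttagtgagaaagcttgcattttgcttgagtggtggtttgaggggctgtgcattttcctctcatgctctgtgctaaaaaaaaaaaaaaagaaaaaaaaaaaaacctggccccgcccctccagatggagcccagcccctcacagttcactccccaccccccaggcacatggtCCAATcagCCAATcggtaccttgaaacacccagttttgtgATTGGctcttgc
Mccc2: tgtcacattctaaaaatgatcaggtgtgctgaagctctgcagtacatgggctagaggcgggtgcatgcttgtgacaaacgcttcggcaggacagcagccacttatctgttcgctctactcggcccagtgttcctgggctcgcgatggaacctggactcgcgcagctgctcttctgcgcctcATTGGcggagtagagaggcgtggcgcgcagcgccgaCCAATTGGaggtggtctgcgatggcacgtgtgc
Auh: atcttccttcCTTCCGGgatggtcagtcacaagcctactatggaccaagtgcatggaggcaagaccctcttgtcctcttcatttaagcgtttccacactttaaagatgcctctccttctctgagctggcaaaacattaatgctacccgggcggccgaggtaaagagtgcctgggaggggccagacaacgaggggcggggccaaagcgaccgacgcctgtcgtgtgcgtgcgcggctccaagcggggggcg
The Mccc1 window held 3 CCAAT matches, at 52, 44 and 12 bases before the start, and the Mccc2 window also held 3, at 69, 33 and 30 bases, the last of which overlap as CCAATTGG. The Auh window held no CCAAT and 1 ETS match at 240 bases. Of other genes lower at an unadjusted edgeR p under 0.05, Suclg1, Pccb, Hibch, Bcat2 and Dlat held no CCAAT in any window. Cs, Idh3b, Fh1, Ivd, Hibadh, Pcca and Mcee, lower at the same threshold, held at least 1. Whether the box goes with the fold change was not tested. CCAAT in either strand was present in 23 of 42 promoter windows of the gene set (54.8%) and in 33.8% of all 32851 windows of that length. CCGGAAG was present in 2 of the 42 windows, those of Auh and Idh3g, and in 6.91% of all windows. TNAAGGTCA, the response element of the oestrogen-related receptors, was in 0 of the 42 and in 1.14% of all windows, and the 10-letter NRF1 palindrome, GCGCA followed by its reverse complement, was in 0 of the 42 and in 0.782% of all windows. All motifs were searched on both strands, CCAAT and CCGGAAG were added after the data had been seen, and a match is a description of letters. The table held windows for 32 of the 34 genes and none for Dbt and Idh3a.

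Library totals were 15348192 to 18211663 counts in the knockout and 15881625 to 19138507 in the control. Pck1 (ENSMUSG00000027513) lay between 34.5 and 84.7 CPM (counts relative to library size, scaled by TMM) in the controls, with a median of 47.0, and between 2.28 and 7.32 with a median of 3.35 in the knockouts. Its log2 fold change, knockout minus control as everywhere below, was -3.66 ± 0.32 (SE, n = 6 + 6). Several libraries stood apart. Control 6 held exocrine pancreas markers at a summed 37926 TPM (the authors' abundance unit, which corrects for gene length), against 68.7 to 5236 in the other 11. Control 1 and knockout 2 differed from their groups along the GC content of transcripts. Control 4 and knockout 4 lay nearest to the other genotype in the genes described here. For some genes the value without such a library is given as well, but values of other genes also moved. Without knockout 4, for instance, the log2 fold change of Pccb went from -0.38 to -0.48 and that of Idh3g from -0.14 to -0.21.

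Most of the 34 genes were somewhat lower in the knockout colon, and no single one passed the test. The log2 fold change was below 0 for 32 genes and above 0 for 2, Auh and Acadsb. Its median was -0.23, which is 14.6% less RNA, against -0.03 over all tested genes, and the single values ran from -0.47 to 0.12. In the quasi-likelihood test of edgeR, adjusted by Benjamini-Hochberg over all tested genes, 0 of the 34 had an adjusted p under 0.05, and the lowest was 0.058 for Mccc2. Of all tested genes 0.0556% passed that threshold in either direction, so it left 8 genes in the whole table. At an unadjusted p under 0.05, 15 of the 34 (44.1%) were lower and 0 higher, where 9.48% of all tested genes were lower and 13.1% higher. That count of 15 became 8 without knockout 1, control 3 or control 5, where 7.06% to 7.39% of all tested genes were lower, and 20 without knockout 4, where 11.7% were. A fold change below 0 was found for 54.9% of all tested genes.

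In 16 of the 34 genes all 6 knockout mice lay below the control median, and in 28 at least 5 did. The same counts were not made over all tested genes, so these have no background to be read against. In 0 of the 34 did the groups separate fully, as they did downward for 0.639% of all tested genes. DESeq2 called 4 of the 34 lower, Mccc2 (adjusted p = 0.00551), Mccc1, Suclg1 and Idh3a, where it called 3.1% of the genes it adjusted lower. The authors' deposited table gave an adjusted p under 0.05 to 3 of the 34, Mccc2, Mccc1 and Suclg1. It gave such a value to 1391 of all 21899 genes, in either direction. How many of those were lower was not counted, so the 3 have no background of lower genes. By the authors' fold changes, 32 of the 34 were below 0. The limma alternatives called 0 of the 34. All scalings tried left the same count of 32 genes below 0.

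**Figure D1:**
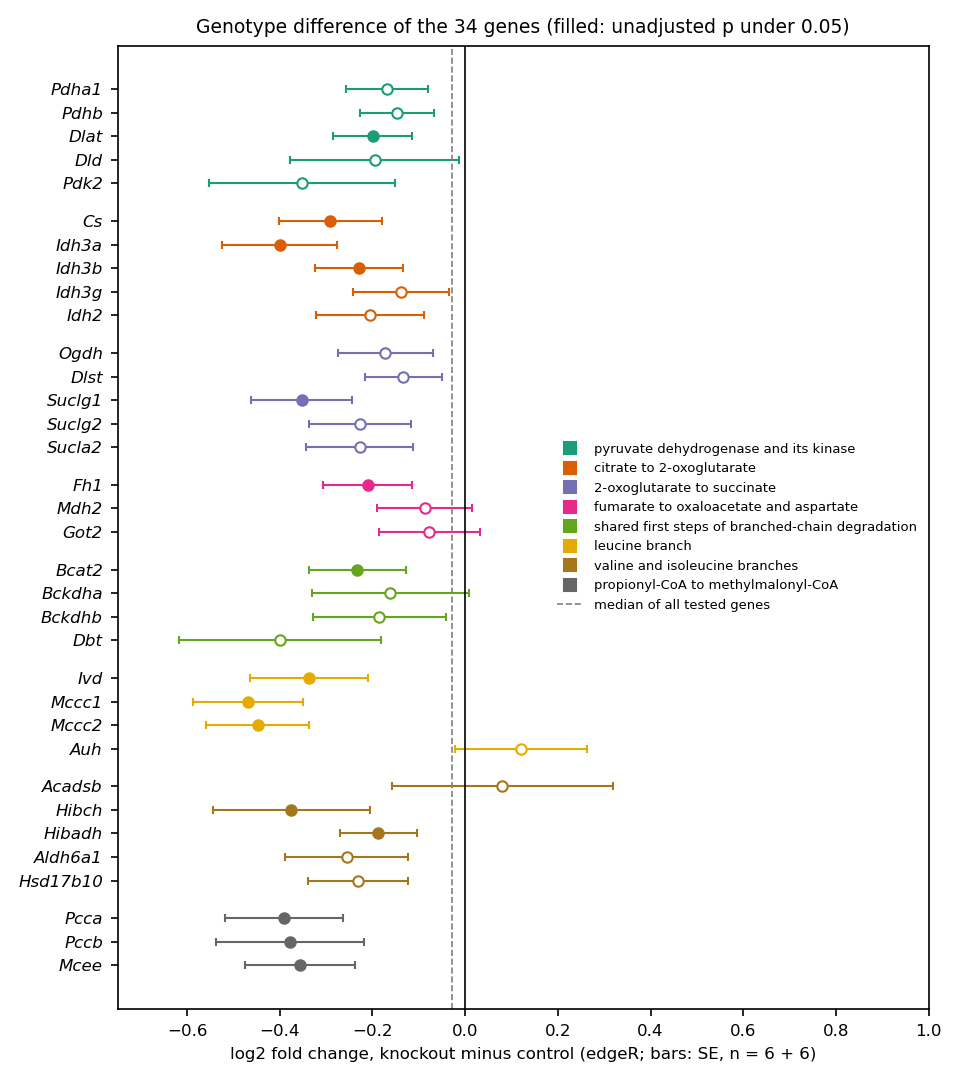
Log2 fold change (knockout minus control, edgeR) of each of the 34 genes on the x axis, grouped by role on the y axis, with SE bars over 6 + 6 mice; filled points had an unadjusted p under 0.05 and the dashed line is the median of all tested genes (-0.03). Of 34 points, 32 lie left of 0, and Auh and Acadsb lie right of it.

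The 5 genes of the pyruvate dehydrogenase group all had a negative fold change, with a median of -0.19, and 1 of them, Dlat, had an unadjusted p under 0.05. Pdha1 (ENSMUSG00000031299), the catalytic E1 alpha subunit, had a control range of 261 to 304 CPM with a median of 275. In the knockouts Pdha1 lay between 214 and 292 CPM with a median of 243. The groups overlapped, 4 knockout mice lay below the lowest control, and the log2 fold change of Pdha1 was -0.17 ± 0.09 (SE; edgeR adjusted p = 0.283). Dlat (ENSMUSG00000000168), the E2 acetyltransferase core, stood at 71.6, 82.2 and 91.4 CPM in the controls (lowest, median, highest) and at 59.9, 72.0 and 78.0 CPM in the knockouts. Of the knockout mice, 3 lay below every control for Dlat, and its log2 fold change was -0.20 ± 0.09 (SE; edgeR adjusted p = 0.187). Pdhb, the E1 beta subunit, and Dld, the E3 dehydrogenase that the 2-oxoglutarate and branched-chain complexes share, had log2 fold changes of -0.15 and -0.19. Pdk2, a kinase that switches pyruvate dehydrogenase off by phosphorylation, gave the group's largest value, -0.35 ± 0.20 (SE; edgeR adjusted p = 0.322). For Pdk2, 5 knockout mice lay below every control, while knockout 4 held the highest value of all 12 at 44.3 CPM. Without knockout 4 the log2 fold change of Pdk2 was -0.58 (edgeR adjusted p = 0.0272), where 2.78% of all tested genes were called lower. Leaving out the highest knockout had to enlarge the difference, so this call carries no support for it.

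From citrate to 2-oxoglutarate, all 5 genes had a negative fold change, 3 with an unadjusted p under 0.05, and the median was -0.23. Cs (ENSMUSG00000005683), citrate synthase, stood at 397, 482 and 608 CPM in the controls (lowest, median, highest) and at 360, 402 and 434 CPM in the knockouts. All 6 knockout mice lay below the control median for Cs, and its log2 fold change was -0.29 ± 0.11 (SE; edgeR adjusted p = 0.141). Idh3a (ENSMUSG00000032279), the catalytic subunit of the NAD-dependent isocitrate dehydrogenase, stood at 138, 150 and 169 CPM in the controls and at 81.8, 115 and 144 CPM in the knockouts. For Idh3a 5 of 6 knockout mice lay below every control, and its spread was wider in the knockout (97.2 ± 22 TPM) than in the control (123 ± 6.86 TPM, SD, n = 6 each). The log2 fold change of Idh3a was -0.40 ± 0.12 (SE; edgeR adjusted p = 0.0836), the largest negative value among the 18 pyruvate dehydrogenase and TCA genes. Knockout 2 was lowest for Idh3a, whose value was -0.32 without control 1 and knockout 2 (edgeR adjusted p = 0.189). Its partners Idh3b and Idh3g, the beta and gamma subunits, had log2 fold changes of -0.23 and -0.14. Idh2, the NADP-dependent mitochondrial isocitrate dehydrogenase, was at -0.21.

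From 2-oxoglutarate to succinate, all 5 genes were again below 0, with a median of -0.23, and Suclg1 had an unadjusted p under 0.05. Suclg1 (ENSMUSG00000052738), the alpha subunit of succinate-CoA ligase, stood at 168, 231 and 261 CPM in the controls (lowest, median, highest) and at 155, 172 and 188 CPM in the knockouts. Of the 6 controls, 4 lay above the highest knockout mouse for Suclg1. Its log2 fold change was -0.35 ± 0.11 (SE; edgeR adjusted p = 0.0835). The beta subunits that pair with it, Suclg2 (GDP-forming) and Sucla2 (ADP-forming), were both at -0.23. Ogdh and Dlst, the E1 and E2 subunits of the 2-oxoglutarate dehydrogenase complex, had the smaller values of -0.17 and -0.13.

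The last steps of the cycle gave the smallest values, with a median of -0.09 over 3 genes. Mdh2 (ENSMUSG00000019179), the malate dehydrogenase that makes oxaloacetate, stood at 229, 264 and 351 CPM in the controls (lowest, median, highest) and at 230, 256 and 286 CPM in the knockouts. No knockout mouse lay below the lowest control for Mdh2, and the log2 fold change was -0.09 ± 0.10 (SE; edgeR adjusted p = 0.666), or -0.0010 without control 1. Got2, which exchanges oxaloacetate and aspartate, was at -0.08. Fh1 (ENSMUSG00000026526), fumarase, stood at 89.3, 102 and 119 CPM in the controls and at 77.1, 86.3 and 105 CPM in the knockouts. For Fh1 4 knockout mice lay below every control, and its log2 fold change was -0.21 ± 0.10 (SE; edgeR adjusted p = 0.211).

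Branched-chain degradation had 14 of 16 genes below 0, 9 with an unadjusted p under 0.05, and a median of -0.30. Its first steps, shared by leucine, valine and isoleucine, held 4 genes, all below 0, with a median of -0.21. Bcat2 (ENSMUSG00000030826), the mitochondrial aminotransferase that removes the amino group, stood at 28.4, 33.8 and 37.2 CPM in the controls (lowest, median, highest) and at 23.5, 28.6 and 31.9 CPM in the knockouts. All 6 knockout mice lay below the control median for Bcat2, and its log2 fold change was -0.23 ± 0.10 (SE; edgeR adjusted p = 0.204). The branched-chain ketoacid dehydrogenase follows it. Its subunits Bckdha and Bckdhb (E1) and Dbt (E2) had log2 fold changes of -0.16, -0.19 and -0.40, the last with an SE of 0.22. The value of Bckdha was -0.27 without knockout 4, -0.25 without control 4 and -0.093 without knockout 1.

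The leucine branch held the largest negative values of the set. Mccc1 (ENSMUSG00000027709) and Mccc2 (ENSMUSG00000021646), which carry the biotin and the carboxyl transfer site of methylcrotonyl-CoA carboxylase, had close values. Mccc2 stood at 23.7, 22.1, 23.5, 19.9, 22.3 and 18.9 CPM in controls 1 to 6 and at 14.1, 19, 13.6, 19, 14.5 and 15.4 CPM in knockouts 1 to 6. Mccc1 stood at 28.7, 22.7, 23.0, 18.7, 28.8 and 20.6 CPM in controls 1 to 6 and at 15.8, 16.4, 17.5, 19.3, 15.9 and 18.1 CPM in knockouts 1 to 6. The overlap rested on few mice: for Mccc1 only knockout 4 lay above a control, which was control 4, and for Mccc2 only knockouts 2 and 4 lay above a control, which was control 6. The log2 fold changes were -0.45 ± 0.11 for Mccc2 and -0.47 ± 0.12 for Mccc1 (SE), with edgeR adjusted p of 0.058 and 0.0596. Ivd (ENSMUSG00000027332), isovaleryl-CoA dehydrogenase, the step before, stood at 32.6, 45 and 54.9 CPM in the controls (lowest, median, highest) and at 29.0, 34.8 and 44.5 CPM in the knockouts, a log2 fold change of -0.34 ± 0.13 (SE; edgeR adjusted p = 0.139). Auh (ENSMUSG00000021460), the hydratase that follows the carboxylase, stood at 13.3, 15.3 and 16.6 CPM in the controls and 11.2, 17.1 and 21.5 CPM in the knockouts. Its log2 fold change was 0.12 ± 0.14 (SE; edgeR adjusted p = 0.665), within the spread between mice. Knockout 2 held its highest value, and the log2 fold change of Auh was 0.030 without knockout 2 and 0.015 without control 1 and knockout 2.

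**Figure D2:**
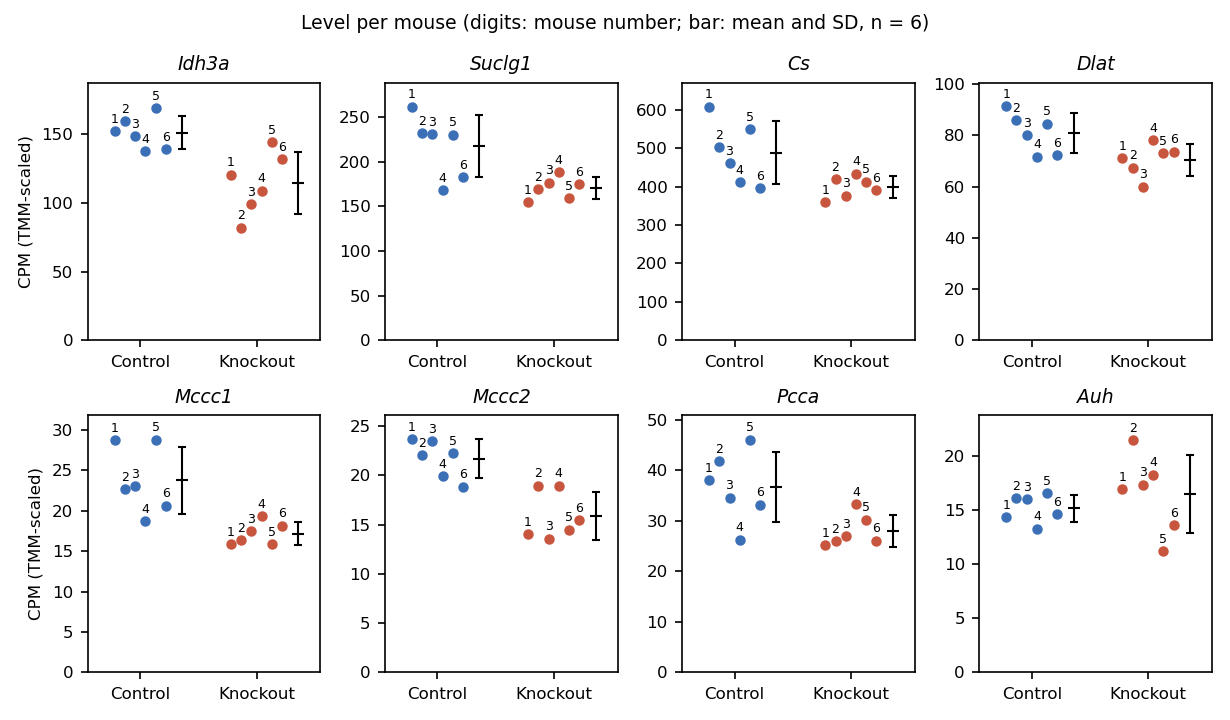
CPM (TMM-scaled, y axis) of Idh3a, Suclg1, Cs, Dlat, Mccc1, Mccc2, Pcca and Auh in each of the 12 mice, by genotype on the x axis, with the mouse number beside each point and a bar for mean and SD (n = 6). Mccc1 and Mccc2 overlap between the groups in few mice, while Auh overlaps widely.

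The valine and isoleucine branches had 4 of 5 genes below 0, with a median of -0.23. Hibadh (ENSMUSG00000029776), the hydroxyisobutyrate dehydrogenase of valine breakdown, stood at 66.4, 75.7 and 86.7 CPM in the controls (lowest, median, highest) and at 62.3, 65.0 and 74.8 CPM in the knockouts. For Hibadh 4 knockout mice lay below every control, and its log2 fold change was -0.19 ± 0.08 (SE; edgeR adjusted p = 0.204). Hibch, the hydrolase one step before Hibadh, was at -0.38 and Aldh6a1, the dehydrogenase one step after it, at -0.26. Hsd17b10 (ENSMUSG00000025260), the dehydrogenase of the isoleucine branch, stood at 42.2, 54.6 and 61.2 CPM in the controls and at 38.4, 45.2 and 54.1 CPM in the knockouts. The log2 fold change of Hsd17b10 was -0.23 ± 0.11 (SE; edgeR adjusted p = 0.221). Acadsb, the acyl-CoA dehydrogenase that opens the isoleucine branch, varied widely between mice, at 18.4 to 54.9 CPM in the controls and 24.7 to 55.3 CPM in the knockouts. The log2 fold change of Acadsb was 0.08 ± 0.24 (SE), -0.06 without control 1 and -0.03 without knockout 3, so it has no settled sign.

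Propionyl-CoA, the shared end of valine and isoleucine, is carried to methylmalonyl-CoA by 3 genes of the set. All 3 were below 0 with an unadjusted p under 0.05, and their median was -0.38. Pcca (ENSMUSG00000041650) and Pccb (ENSMUSG00000032527) encode the subunits of propionyl-CoA carboxylase. Pcca stood at 26.3, 36.4 and 46.1 CPM in the controls (lowest, median, highest) and at 25.1, 26.6 and 33.4 CPM in the knockouts, a log2 fold change of -0.39 ± 0.13 (SE; edgeR adjusted p = 0.096). Pccb stood at 74.8, 105 and 120 CPM in the controls and at 54.5, 77.2 and 106 CPM in the knockouts, a log2 fold change of -0.38 ± 0.16 (SE; edgeR adjusted p = 0.181). For Pcca 4 controls lay above every knockout mouse, and for Pccb 3 did. Mcee, the epimerase that acts on methylmalonyl-CoA, was at -0.36 ± 0.12 (SE), with 5 knockout mice below every control.

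Per gene length, the set spanned 6.27 TPM for Bckdhb to 337 TPM for Mdh2 (means over 12 mice). Mdh2, Cs and Suclg1 were the most abundant, at 340 ± 57.1, 302 ± 50.0 and 259 ± 41.5 TPM in the controls and 334 ± 39.7, 258 ± 27.0 and 211 ± 17.1 TPM in the knockouts (SD, n = 6 each). In the controls the ranges of mean ± SD overlapped between Mdh2 and Cs and between Cs and Suclg1, while in the knockouts Mdh2 stood above Cs by more than both SDs together. The leucine enzymes stood far lower, Mccc1 at 17.4 ± 2.84 TPM and Mccc2 at 18.9 ± 1.82 TPM in the controls, and at 13.1 ± 1.21 and 14.4 ± 2.61 TPM in the knockouts. Among these members the groups' SD ranges overlapped for 32 of 34.

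**Figure D3:**
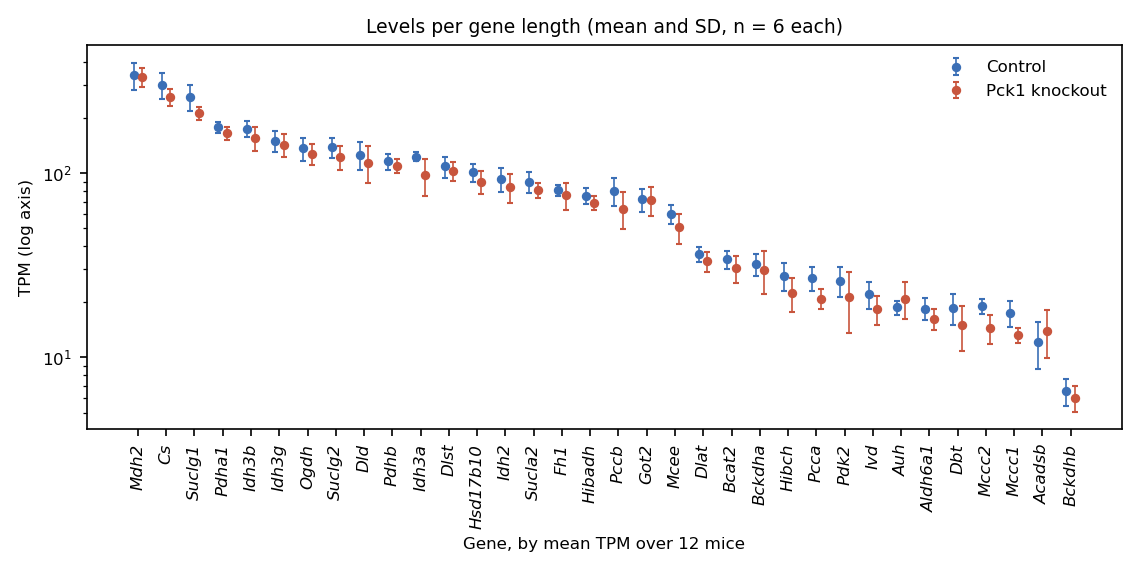
Mean TPM (log axis) of the 34 genes in controls and knockouts, ordered by the mean over 12 mice, with bars of 1 SD over 6 mice each. The TCA cycle genes Mdh2, Cs and Suclg1 lead, and the branched-chain gene Bckdhb is lowest.

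Ratios of TPM between subunits were compared in 12 combinations, chosen after the data had been seen, by exact two-sided permutation tests with Benjamini-Hochberg adjustment over the 12. Mccc1 to Mccc2 was 0.920 ± 0.124 in the controls and 0.927 ± 0.120 in the knockouts (SD, n = 6 each; exact permutation p = 0.931). Pdha1 to Pdhb was 1.54 ± 0.105 and 1.5 ± 0.144. Idh3a to Idh3b was 0.710 ± 0.050 in the controls and 0.627 ± 0.124 in the knockouts (SD; exact permutation p = 0.158, adjusted 0.474). The 2 with the lowest p set a non-member against a member: Bcat1, the cytosolic aminotransferase, to Bcat2 was 0.0198 ± 0.0127 in the controls and 0.0555 ± 0.0319 in the knockouts (SD; exact permutation p = 0.00866, adjusted 0.104), and Pdk4 to Pdk2 was 0.212 ± 0.0719 and 0.468 ± 0.301 (exact permutation p = 0.026, adjusted 0.156). None of the 12 passed after adjustment.

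The mean deviation of the 34 genes from their 12-mouse mean was between -0.08 and 0.20 log2 units in the controls and between -0.19 and 0.06 in the knockouts. The overlap came from knockout 4 alone, at 0.06, above control 4 (-0.08) and level with control 6 (0.06), while the other 5 knockouts lay at or below -0.12, under every control. Control 4 was the lowest control for 18 of the 34 genes, and knockout 4 the highest knockout for 17. Leaving out knockout 4 gave 4 genes with an edgeR adjusted p under 0.05 (Mccc1, Mccc2, Mcee and Pdk2), where 2.78% of all tested genes were called lower. Leaving out control 4 gave Mccc1, Mccc2, Pcca and Suclg1, where 1.93% were called lower. Leaving out control 6, the library with the highest sum of pancreas markers, gave 1 gene, Mccc2, where 0.699% were called lower. Leaving out both mice numbered 4, a choice made after seeing the data, gave 11 genes, where 4.88% were called lower. Mice 4 were picked because they lay nearest to the other genotype, so the larger counts carry no support for the difference.

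Markers of other cells moved with the same mice and groups, and their part in the values above was not tested. In bulk tissue, fewer cells of a type and less RNA per cell cannot be told apart. Of 10 epithelial markers 8 were below 0 and 5 had an unadjusted p under 0.05 and were lower, with a median log2 fold change of -0.16 and sums of 8458 to 12416 TPM in the controls and 8840 to 9943 TPM in the knockouts. All 8 fibroblast markers were above 0, 7 with an unadjusted p under 0.05, and summed to 1195 to 2462 TPM in the controls and 1987 to 4772 TPM in the knockouts. All 8 neutrophil markers were above 0, 6 with an unadjusted p under 0.05, at 243 to 1467 TPM and 582 to 3409 TPM. Of all marker genes used, only Ngp, a neutrophil granule gene, was at 0 in any library. Control 4 had the highest neutrophil, macrophage and endothelial sums of the controls (1467, 958 and 194 TPM), and knockout 4 the lowest macrophage, fibroblast and endothelial sums of the knockouts (933, 1987 and 178 TPM). Smooth muscle markers had 7 of 8 below 0, at 1776 to 3714 TPM and 1773 to 2724 TPM. Their sum was the lowest of the controls in control 4 (1776 TPM) and the highest of the knockouts in knockout 4 (2724 TPM). For the epithelial sums neither of these mice was the lowest or highest of its group. Macrophage sums were 584 to 958 TPM and 933 to 2196 TPM, endothelial sums 120 to 194 TPM and 178 to 382 TPM, and enteric neuron and glia sums 45.8 to 73.6 TPM and 63.2 to 161 TPM. B and plasma cell sums were 770 to 1758 TPM and 940 to 1683 TPM, T cell sums 35.0 to 67.7 TPM and 31.0 to 61.9 TPM, and adipocyte sums 105 to 237 TPM and 89.4 to 365 TPM.

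**Figure D4:**
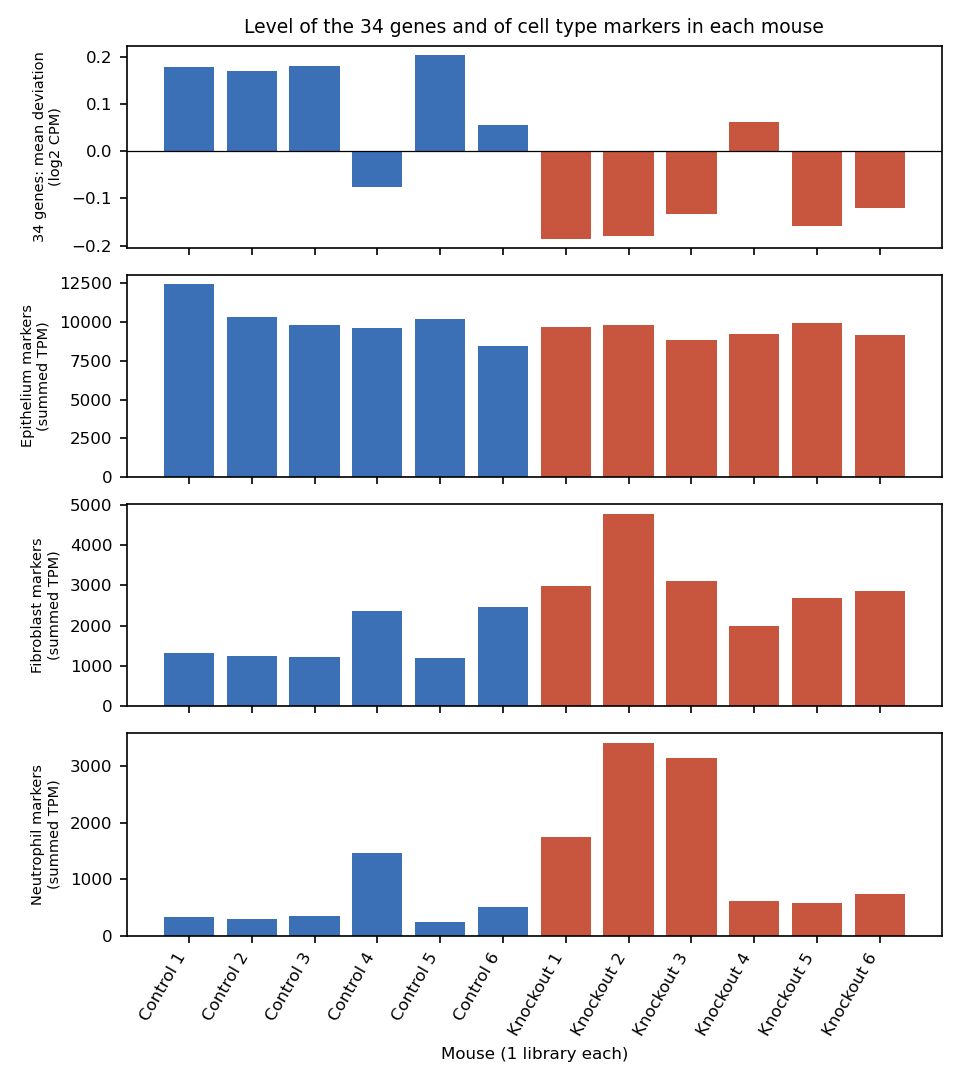
Mean deviation of the 34 genes (log2 units, y axis) in each of the 12 mice, above the summed TPM of the epithelium, fibroblast and neutrophil marker lists in the same mice, 1 bar a mouse. Control 4, at -0.08, is the only control below 0, and knockout 4, at 0.06, the only knockout above 0.

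Other genes of the same pathways were also mostly below 0. Of 14 other TCA genes 11 were below 0, 5 with an unadjusted p under 0.05, with a median of -0.18. Idh1, the cytosolic isocitrate dehydrogenase, was at -0.38 ± 0.11 (SE), Pcx, pyruvate carboxylase, at -0.40 ± 0.13 and Me2, a mitochondrial malic enzyme, at -0.33 ± 0.12. Of 12 other pyruvate dehydrogenase genes 9 were below 0, 3 of them with an unadjusted p under 0.05, and Pdk4 was higher with an unadjusted p under 0.05. The groups overlapped for Pdk4, at 6.82 to 13.3 CPM in the controls and 7.59 to 34.2 CPM in the knockouts (edgeR adjusted p = 0.213). Its highest value was that of knockout 3, with the next knockout at 16.2 CPM. Pdp2, the phosphatase that reactivates the complex, stood at 12.2, 20.3 and 28.4 CPM in the controls (lowest, median, highest) and at 6.60, 11.9 and 14.5 CPM in the knockouts, a log2 fold change of -0.86 ± 0.24 (SE; edgeR adjusted p = 0.0697). Lipt2 and Lias, which make the lipoyl group that the E2 subunits carry, were at -0.61 ± 0.19 and -0.21 ± 0.09.

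Of 15 other branched-chain genes 10 were below 0, with 7 lower and 2 higher at an unadjusted p under 0.05 and a median of -0.20. Mmab, which makes the cobalamin cofactor used downstream of propionyl-CoA, was below every control in all 6 knockouts, at 18.1 to 31.6 CPM against 13.2 to 16.6 CPM (log2 fold change -0.74 ± 0.13, SE; edgeR adjusted p = 0.0512). Oxct1, which activates ketone bodies, separated as well, at 169 to 273 CPM against 108 to 166 CPM (-0.52 ± 0.13). Full downward separation was thus found for 2 of the 15 genes, and for 0.639% of all tested genes. Abat, a transaminase, was at -0.80 ± 0.18 (SE; edgeR adjusted p = 0.0531). The cytosolic Bcat1 went the other way, at 0.459 to 1.66 CPM in the controls and 1.33 to 5.43 CPM in the knockouts (1.43 ± 0.42, SE; edgeR adjusted p = 0.075), and was picked after its values were seen. Its highest value was that of knockout 2, and its lowest count in a library was 8. The log2 fold change of Bcat1 was 0.93 without control 1 and knockout 2 (edgeR adjusted p = 0.202). Without control 4, which held the highest control value (1.66 CPM), it was 1.75 (edgeR adjusted p = 0.0292). Leaving out that mouse had to raise the value, and far more genes were called over the whole table. The lower adjusted p therefore carries no support for the difference.

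Among 18 regulators of mitochondrial genes 15 were below 0, 4 with an unadjusted p under 0.05, with a median of -0.16. Esrrg, an oestrogen-related receptor, lay below every control in all 6 knockouts, at 1.35 to 2.98 CPM in the controls and 0.114 to 1.09 CPM in the knockouts. Its log2 fold change was -1.78 ± 0.35 (SE; edgeR adjusted p = 0.0512). At such CPM a library holds few reads of Esrrg, so this value rests on low counts. Full downward separation was found for 1 of the 18 regulators and for 0.639% of all tested genes. The coactivators Ppargc1a and Ppargc1b were at -0.93 ± 0.26 and -0.39 ± 0.13. None of these 3 passed the threshold. Other mitochondrial lists ran alongside: all 21 nuclear respiratory chain genes were below 0 (7 with an unadjusted p under 0.05, median -0.19), as were all 13 mitochondrial-encoded ones (0 with an unadjusted p under 0.05, median -0.22), 14 of 18 fatty acid oxidation genes (median -0.11) and 14 of 16 other mitochondrial protein genes (median -0.12). The difference between these lists and the 34 genes was not tested.

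GC content separated 2 libraries from their groups. Over 14372 tested genes, a library's deviation from the other 5 of its group correlated with transcript GC at Pearson r = 0.42 in control 1 and 0.49 in knockout 2, and at -0.31 to 0.07 in the other 10. Over the 34 genes the values were 0.57 and 0.71, against -0.59 to 0.42 in the other 10, so control 1 did not stand apart in size there. These correlations are across genes, which are not independent replicates. Some genes of low GC stood low in both mice. Dld (40.6% GC) differed from the other mice of the group by -0.65 log2 units in control 1 and -0.96 in knockout 2, and Dbt (42.1% GC) by -0.78 and -1.15. Acadsb (42.7% GC), Sucla2 and Hibch also stood low in both. Others of low GC did not: Hibadh (39.5% GC) was at 0.19 in control 1 and -0.12 in knockout 2, Aldh6a1 at -0.33 and 0.028, Mccc1 at 0.35 and -0.075, and Suclg2 at 0.20 and -0.30. The 34 genes had a median GC of 48.0%, against 49.7% over all tested genes. Without control 1 and knockout 2, 32 genes stayed below 0 with a median of -0.22, 10 (29.4%) were lower with an unadjusted p under 0.05, where 8.10% of all tested genes were, and 0 had an edgeR adjusted p under 0.05.

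**Figure D5:**
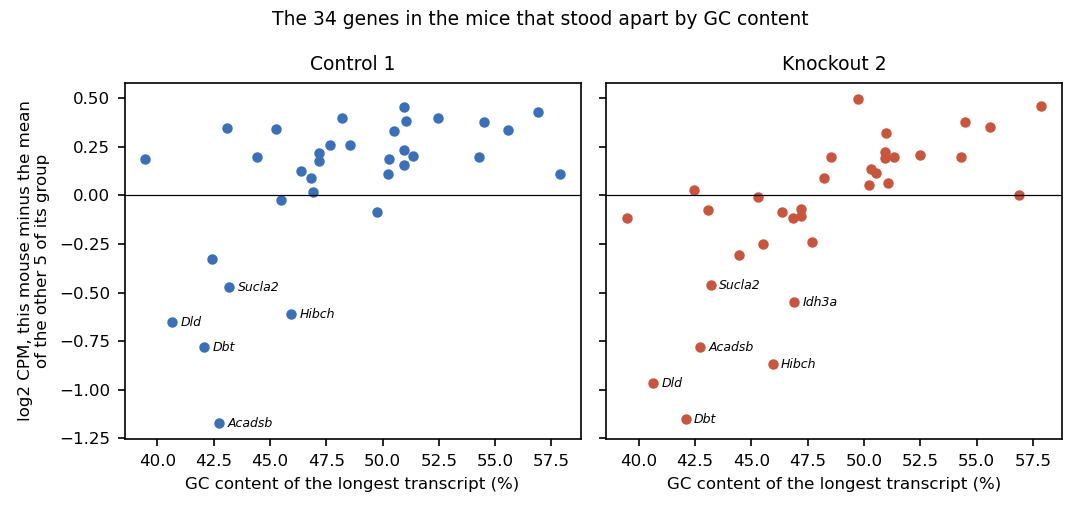
Deviation of each of the 34 genes from the other 5 mice of its group (log2 units, y axis) against the GC content of its longest transcript in percent (x axis), 1 point a gene, in control 1 and knockout 2. In both mice Dld, Dbt, Acadsb, Sucla2 and Hibch lie below the other mice of the group, while Hibadh, with the lowest GC, does not stand apart.

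Exons of 8 members overlap a gene on the opposite strand in GENCODE M21 (Pdha1, Idh3b, Got2, Bcat2, Bckdha, Mccc1, Aldh6a1 and Pcca), and an exon of Hibadh overlaps a gene on its own strand. Whether counting used strand is not given in the sources used here, so reads of such partners cannot be told apart. Processed copies or close relatives (Csl for Cs, Got2-ps1 for Got2) may share reads as well.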

How the data were processed

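Colon RNA of 12 mice was taken with Trizol and made into libraries with the SMARTER mRNA-Seq kit, per the labels' protocols. The authors deposited 1 table, which per the file headers holds read counts per gene and library, used as deposited, and TPM, which corrects for length and depth. The log2 fold change and the p-value, raw and adjusted, that the authors deposited for each gene were read only as their own result. The submitters' processing notes list GRCm38, mm10 and mm39 without roles; no source used here names the aligner or counter. Groups and mouse numbers came from the labels.

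Counts went through edgeR 4.0.16 (R 4.3.3): filterByExpr at a minimum count of 10 and total of 15, TMM scaling, and a quasi-likelihood F test of knockout minus control, fitted over all tested genes without covariates. P-values were adjusted by Benjamini-Hochberg, and 0.05 was the threshold. Biological variation came to a coefficient of 0.262. Each SE is derived from the F statistic. The procedure was tested on simulated data. Alternatives used DESeq2 1.42.0, limma 3.58.1, other scalings and filters, the replicate number as a block and each library left out. Replicates are separate mice by their labels, and no libraries were alike within counting noise (lowest chi-square per gene 19.4 over 66 combinations). Library totals set the counting error; every member had at least 64 counts in each library. Members and lists were chosen with earlier results of these data known. Values in every group are given for the member with the smallest p and the one with the highest TPM in each role group. For the 3 smallest p of each other pathway list and of the regulators, fold changes are given. Of these, CPM in both groups is given for Pdp2, Mmab, Oxct1 and Esrrg. Mccc1, Auh, Acadsb, Pdk2, Pdk4, Mcee and Bcat1 were added after their values were seen. Atp5o stood on 2 rows and was left out.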

Additional observations from a re-analysis of the deposited data

Results flagged for a closer look

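In 5 of 68 groups of 6 mice, 1 mouse lay far from the others of its genotype in the CPM of a gene; chance flags about 1 group in 20. Pdk2 was highest in knockout 4, at 44.3 CPM with the nearest mouse at 24.3. Mdh2 was highest in control 1, at 351 CPM with the nearest at 274. Bckdha was lowest in control 4, at 23.5 CPM with the nearest at 34. Dbt was lowest in control 1, at 20.7 CPM with the nearest at 32.2. Hibch was lowest in knockout 2, at 12.7 CPM with the nearest at 20.9. These are the 4 mice described above for their GC content or for lying nearest to the other genotype.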

How the results depend on the processing

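The median log2 fold change of the 34 genes stayed below 0 in all 24 alternatives, from -0.30 to -0.16, and 32 or 33 genes were below 0 in each. Pck1 kept its call in each. Of 816 gene values under alternatives, 24 newly passed the threshold and 2 reversed; none could lose a call, since no member was called in the main analysis. The reversals were Acadsb without control 1 or knockout 3; leaving out each mouse gave -0.061 to 0.21. Genes called in the whole table, 8 in the main analysis, were 52 with DESeq2's size factors in edgeR, 275 with library size only, 1532 with DESeq2, 49 with limma voom, 403 and 413 with limma-trend on TPM with a pseudocount of 1 and 0.1, and 2 to 1272 with each mouse left out (1272 without knockout 4, 1007 without control 4, 373 without control 6 and 2 or 3 otherwise). Members called were 4 with DESeq2 and 0 to 4 with each mouse left out. Members at an unadjusted p under 0.05, 15 in the main analysis, were 8 with library size only, 5 with either TPM alternative and 8 to 20 with each mouse left out. The share of all tested genes lower at that threshold, 9.48% in the main analysis, moved too, to 6.23%, 5.21% or 5.22%, and 7.06% to 11.7%. Chosen after seeing the data, leaving out both mice numbered 4 gave 1911 genes, 11 members called and 23 members at an unadjusted p under 0.05 (12.8% of all genes), and leaving out control 1 and knockout 2 gave 1 gene. The cause was not tested. The labels do not say what the mouse numbers mark. Deviations of same-numbered mice correlated at -0.50 to 0.08, which cannot settle whether the numbers stand for litters or batches. With the replicate number as a block, 1 gene and 6 members (17.6%) at an unadjusted p under 0.05 were found. At that threshold 5.70% of all genes were lower. All members passed the count filter, with Bckdhb lowest at 64 counts in a library, and whether depth limited them was not tested. The 6 mice per genotype limit the precision.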
